A study of Mus musculus with 4 samples.

Results

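The aminoacyl-tRNA synthetases examined here were chosen as a list of 38 gene symbols, with no measured value in the rule, from the 24185 gene symbols on the array. The list held 20 cytosolic enzymes, 16 mitochondrial enzymes, whose symbols end in 2, and 2 scaffold proteins, Aimp1 and Aimp2. These 38 genes were represented by 48 of the 55681 probes. RNA immunoprecipitation (RIP) recovers the RNA attached to a protein by means of its antibody, and non-specific IgG gives the background of the procedure. Lysate of cortex and hippocampus from male C57BL/6 mice of 8 weeks, with no other genotype or treatment in the labels, was divided and kept for 3 h with beads carrying either CPEB2 IgG or control IgG. Each of the 2 independent experiments gave 1 array per antibody, so 2 CPEB2 IgG arrays were compared with 2 control IgG arrays. RNA amounting to 0.2 µg per sample was amplified and labelled with Cy3, and the labels do not say how many mice went into a lysate. The question behind the comparison was which RNAs are bound by CPEB2, a protein that recognizes the cytoplasmic polyadenylation element (CPE) in messenger RNAs and controls their translation.

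Aminoacyl-tRNA synthetases join each amino acid to its transfer RNA, and the charged tRNA is then carried to the ribosome by elongation factors. Most amino acids have one enzyme for the cytosol and another for mitochondria, both encoded in the nucleus, while Gars and Kars each supply both compartments from a single gene. The enzymes fall into class I and class II by the fold of their catalytic core, and in animals several cytosolic enzymes assemble with Aimp1 and Aimp2 into the multisynthetase complex. Neurons depend on these enzymes wherever protein is made, and mutations in Gars and Yars are known causes of peripheral nerve disease.

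The sequences shown here are some of the 30-base stretches of member probes that hold CPE letters or a polyadenylation hexamer. They were looked at because the study looked for CPEs in the RNAs recovered. The CPE letters searched were TTTTAT and TTTTAAT, the hexamer letters were AATAAA and ATTAAA, and both were read on the strand of the messenger RNA within the 60-base probes. Capitals mark the letters found. Positions were taken from the array annotation, build mm9, and the strand is that of the RNA. Whether a stretch lies in coding or untranslated sequence was not analysed here.
Farsa, chr8:87393098-87393127, plus strand: gcaggccagctgTTTTAATaaagtgggcac
Tars, chr15:11313527-11313556, minus strand: agatccaaaaatggggatgTTTTATgtacc
Sars, chr3:108229539-108229568, minus strand: actggtgaagccacgcAATAAAgcatctct
Aimp2, chr5:144663576-144663605, minus strand: agggacttgtccAATAAAgtaccatatcat
Cars, chr7:150743615-150743644, minus strand: ctgggacactgatAATAAAttcttctgaac
Wars, chr12:110098246-110098275, minus strand: ttaggaaaaaacAATAAActttgttgagct
Farsa and Tars were the only members whose probes held CPE letters, in 2 of 48 member probes (4.17%) against 4.54% of all probes on the array. On the other strand the CPE letters were in 2 member probes and in 6.50% of all probes. A hexamer was in 11 of 48 member probes (22.9%) against 13.7% of all probes, and on the other strand in 4 member probes against 6.14% of all probes. In the Farsa probe the CPE letters overlap an AATAAA hexamer. Probes of Aimp1, Fars2, Hars2, Pars2, Tars and Tars2 also held a hexamer, and those stretches are not shown. A match is a description of the letters and no evidence of binding, and a probe covers only a short piece of a messenger RNA, so nothing follows from these windows about CPEs elsewhere in the same RNA.

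Of the 59305 spots on each array, between 68.4% and 74.1% were well above background and none was saturated. The median signal of an array lay between 59.0 and 76.5. Precision is limited by the number of arrays. All 4 arrays were on the same slide and in the same scan, but each antibody had its own array positions, so position and antibody cannot be told apart. The arrays carry RNA recovered from whole tissue, so the cell type that an RNA came from is not known. Each lysate was divided between both antibodies, so the cells were the same for both within an experiment. No array of the undivided lysate was analysed here. The tissue label was checked on marker genes. All 7 neuron markers, 5 astrocyte markers, 5 oligodendrocyte markers, 5 microglia markers and 3 endothelial markers were well above background on all 4 arrays and none was at 0. Of 4 markers of other tissues, albumin (Alb) was not well above background on any array. The others, Ins2, Myh6 and Tnnt2, were well above background on all 4 arrays, so detection alone does not tell the tissue. The summed signal of the neuron markers was 143334 and 141249 with CPEB2 IgG against 120933 and 118443 with control IgG. Map2 alone had 22891 and 26055 against 5689 and 3884. The sum of the astrocyte markers was 36824 and 35603 against 21285 and 16475. It was mostly the signal of Slc1a3 (28729 and 26888.5 against 3302 and 2133), while Aldh1l1 and Gfap were lower, so a sum does not describe each marker. The sums were 54935 and 55004 against 64653 and 50858 for oligodendrocyte markers, 16557.5 and 15479.7 against 15809 and 25626 for microglia markers, and 1758 and 1694 against 2347 and 1865 for endothelial markers. Itgam gave much of the microglia sums (9362 and 9187 against 4078 and 15744). Its log2 fold change turned sign between the experiments, from 1.28 to -0.75. By limma, 1 neuron marker was higher, 2 astrocyte markers were higher and 2 lower, 2 oligodendrocyte markers were lower, and 1 microglia marker was higher and 2 lower. No endothelial marker was called, nor was any past an unadjusted p of 0.05. Of the markers of other tissues, Tnnt2 was lower, with a log2 fold change of -2.68 (adjusted p = 0.0057, limma). The part of these markers in the results below was not tested.

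The messenger RNAs of the synthetases mostly had a lower scaled signal with CPEB2 IgG than with control IgG. Each array was labelled from 0.2 µg of RNA and scaled, so values are relative to the other RNAs on the array. The total amount of RNA that each antibody recovered was not analysed here. Of the 37 genes that could be tested, 28 were lower, 1 was higher and 8 were not called at an adjusted p-value under 0.05 (limma over 19698 genes). Among all genes tested, 20.4% were lower and 21.2% were higher. Without a filter on dim probes the test called fewer genes, with 18 of 38 members lower against 7.66% of all genes. The adjusted p-values of these 18 lay between 0.0444 and 0.0499 (limma), just under the threshold, and Mars2 is among them. The log2 fold change of CPEB2 IgG over control IgG, each array being scaled to its 75th percentile, had a median of -1.44 over the 37 genes and -0.11 over all genes. It was below 0 in 33 of the 37 genes, and in 32 of them in both experiments. Both CPEB2 IgG arrays lay below both control IgG arrays in 31 genes, where the share of all genes was 38.2%, and above them in 4 genes, where it was 33.6%, and the arrays overlapped in 2. The gene that was not tested with the filter, Mars2 for mitochondrial methionine, had signals of 7.63 and 4.22 with CPEB2 IgG against 25.3 and 18.1 with control IgG. Mars2 was well above background on 1 control IgG array only, so no fold was taken from it. Of the 37 genes, 36 were well above background on all 4 arrays, and Nars2 was so on both CPEB2 IgG arrays only. The smallest p that an exact permutation test of 2 arrays against 2 can give is 0.333 (two-sided), so single genes were judged with limma, which borrows the spread from all genes.

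**Figure D1:**
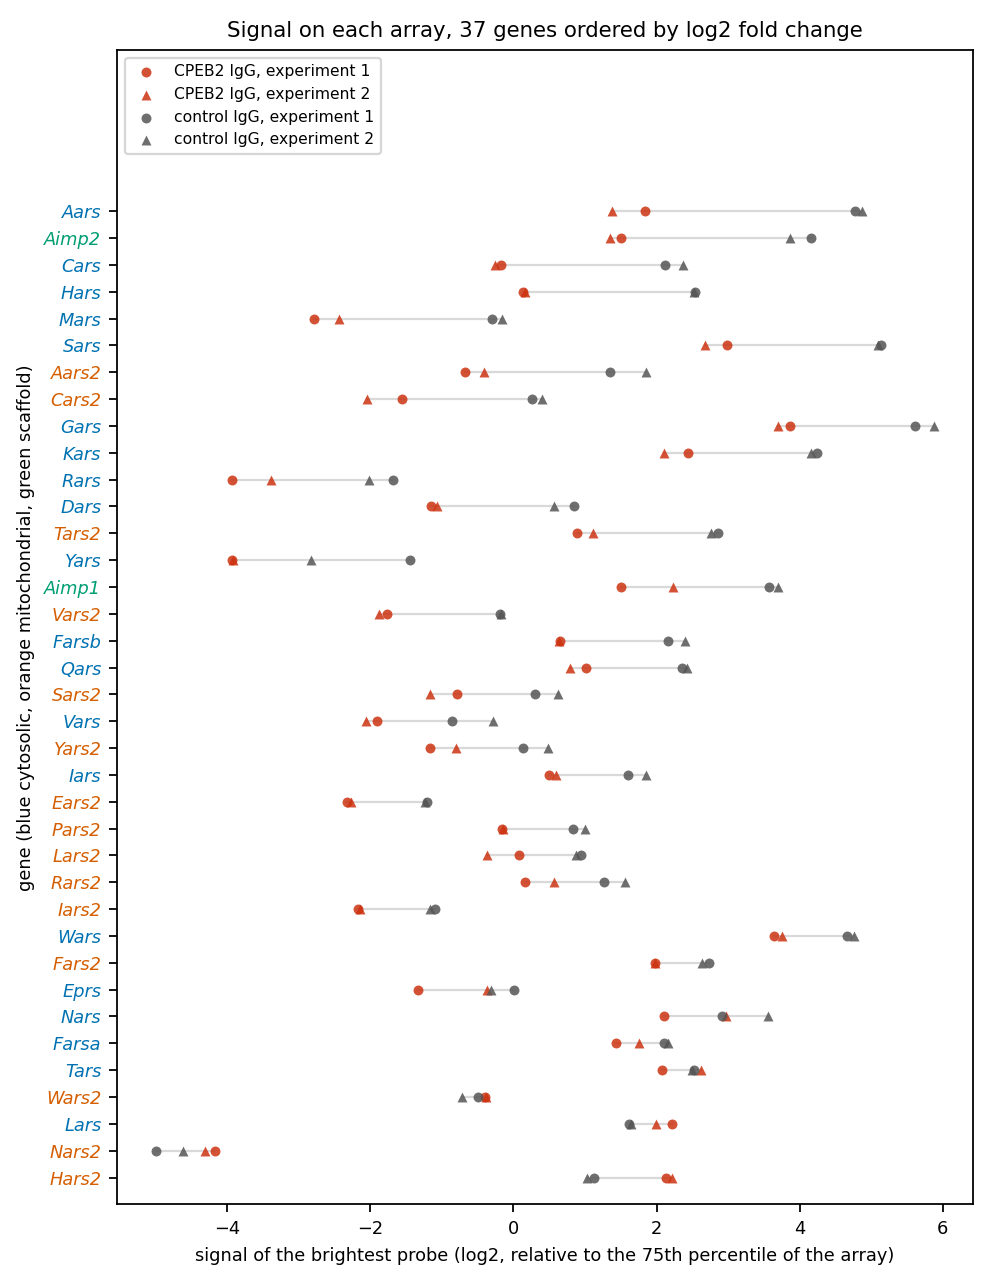
Signal of the brightest probe of each of the 37 tested genes (vertical axis, from the lowest log2 fold change at the top to the highest at the bottom) on the 4 arrays, as log2 relative to the 75th percentile of the array (horizontal axis). Red marks are CPEB2 IgG, gray marks control IgG, circles experiment 1 and triangles experiment 2. The red marks lie to the left of the gray marks in 31 genes, and positions compare arrays within a gene, not genes with one another.

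Among the cytosolic enzymes, 15 of 20 were lower and 0 were higher by limma, against 20.4% and 21.2% of all genes tested. At an unadjusted p under 0.05, 0 cytosolic enzymes were higher either. Their median log2 fold change was -1.72. Aars, which charges tRNA with alanine and edits mistakes, had the lowest value of the group. Its signal was 1497 and 1090.0 with CPEB2 IgG against 12074 and 12496 with control IgG. The CPEB2 IgG arrays were far below the control IgG arrays in both experiments, with a log2 fold change of -3.21 ± 0.40 (SD over n = 2 experiments), a standard error of 0.26 and an adjusted p of 0.0054 (limma). Only 0.294% of all genes had a lower value. A second Aars probe was dim and not well above background with CPEB2 IgG, so no fold was taken from it.

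Cars, the cysteine enzyme, had signals of 372 and 348 with CPEB2 IgG against 1919 and 2201 with control IgG. Hars, the histidine enzyme, had 458 and 465 against 2567 and 2447. Mars, the methionine enzyme, which also serves the initiator tRNA, had 60.8 and 76.9 against 359 and 379.7. In all 3 genes the arrays of each antibody were close to each other and the antibodies did not overlap. Their log2 fold changes were -2.46 ± 0.25, -2.39 ± 0.022 and -2.38 ± 0.14 (SD, n = 2), each with an adjusted p of 0.0054 (limma). Sars, the serine enzyme, had 3308 and 2678 against 15660.3 and 14534, a log2 fold change of -2.29 ± 0.18 (adjusted p = 0.0055, limma).

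The 2 genes that serve cytosol and mitochondria alike were also lower. Gars, the glycine enzyme, had signals of 6120.3 and 5426 with CPEB2 IgG against 21658 and 24979.8 with control IgG, and Kars, the lysine enzyme, had 2278 and 1803 against 8399.8 and 7615. Neither gene overlapped between the antibodies. The log2 fold changes were -1.96 ± 0.31 for Gars and -1.93 ± 0.18 for Kars (SD, n = 2), with adjusted p-values of 0.0069 and 0.0065 (limma). The Kars probe shared a stretch of at least 16 bases, searched on either strand, with 1 probe listed under another gene name. That probe had a log2 fold change of -2.16, so the signal of both could be mixed. Which strand matched, and whether the other name is another gene, was not analysed here. The same limit holds for the brightest probes of Aars2, Eprs, Rars, Wars and Yars. Each shared such a stretch with 1 probe well above background on at least 2 arrays, at 0.21, -0.20, -2.14, 0.42 and -0.73. For the dimmer Wars2 probe that value was 0.70. The part of shared sequence in these signals was not tested.

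The other cytosolic enzymes that were lower had values between -1.82 and -1.01 on the log2 scale. Rars for arginine (-1.82 ± 0.63), Dars for aspartate (-1.81 ± 0.25) and Yars for tyrosine (-1.80 ± 1.00) came next after Kars. Rars was dim, with signals of 27.2 and 39.7 with CPEB2 IgG against 138 and 104 with control IgG. Without the filter on dim probes Rars was not called (adjusted p = 0.063, limma). Yars had the widest spread of the 37 genes, with signals of 27.2 and 27.5 with CPEB2 IgG against 163 and 59.5 with control IgG, so its control arrays lay far apart although the antibodies did not overlap. Farsb, the beta subunit of the phenylalanine enzyme, was at -1.64, Qars for glutamine at -1.50, Vars for valine at -1.41, Iars for isoleucine at -1.18 and Wars for tryptophan at -1.01, with an adjusted p of 0.026 (limma) for Wars.

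The other 5 cytosolic enzymes did not pass the test. Eprs, a single protein that charges both glutamate and proline, had signals of 165 and 324 with CPEB2 IgG against 445 and 340.1 with control IgG. The experiments differed for Eprs, with log2 fold changes of -1.34 and -0.05 (adjusted p = 0.20, limma). Nars, the asparagine enzyme, had 1802 and 3281 against 3329 and 4993, a log2 fold change of -0.69 with arrays that overlapped after scaling (adjusted p = 0.073, limma). Tars, the threonine enzyme, had 1758 and 2573 against 2557 and 2395, and its sign turned between the experiments, from -0.46 to 0.13 (adjusted p = 0.65, limma). Lars, the leucine enzyme, which is also known as a leucine sensor for mTORC1 signaling, was alone above 0 among the 20 cytosolic enzymes of the list. Its signals were 1948 and 1665 with CPEB2 IgG against 1354 and 1325 with control IgG, without overlap, but its log2 fold change of 0.48 ± 0.18 did not pass the test (adjusted p = 0.17, limma).

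Farsa, the alpha subunit of the phenylalanine enzyme, was the only member with probes well above background on at least 2 arrays that differed by more than 1 on the log2 scale. Its brightest probe, which holds the CPE letters shown above, had signals of 1135 and 1417 with CPEB2 IgG against 1904 and 1899 with control IgG. That probe gave -0.53 ± 0.19 (SD, n = 2), which did not pass the test (adjusted p = 0.14, limma). A second probe, which lies upstream of the brightest on the same chromosome, had 43.9 and 51.6 against 281 and 352, and gave -2.67 ± 0.11. The third probe, which the array annotation ties to another transcript, had 29.9 and 24.7 against 44.3 and 45.6, and gave -0.67 ± 0.27. All 3 Farsa probes had CPEB2 IgG arrays below control IgG arrays and differed in size by 2.14, so the value of Farsa depended on the probe.

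**Figure D2:**
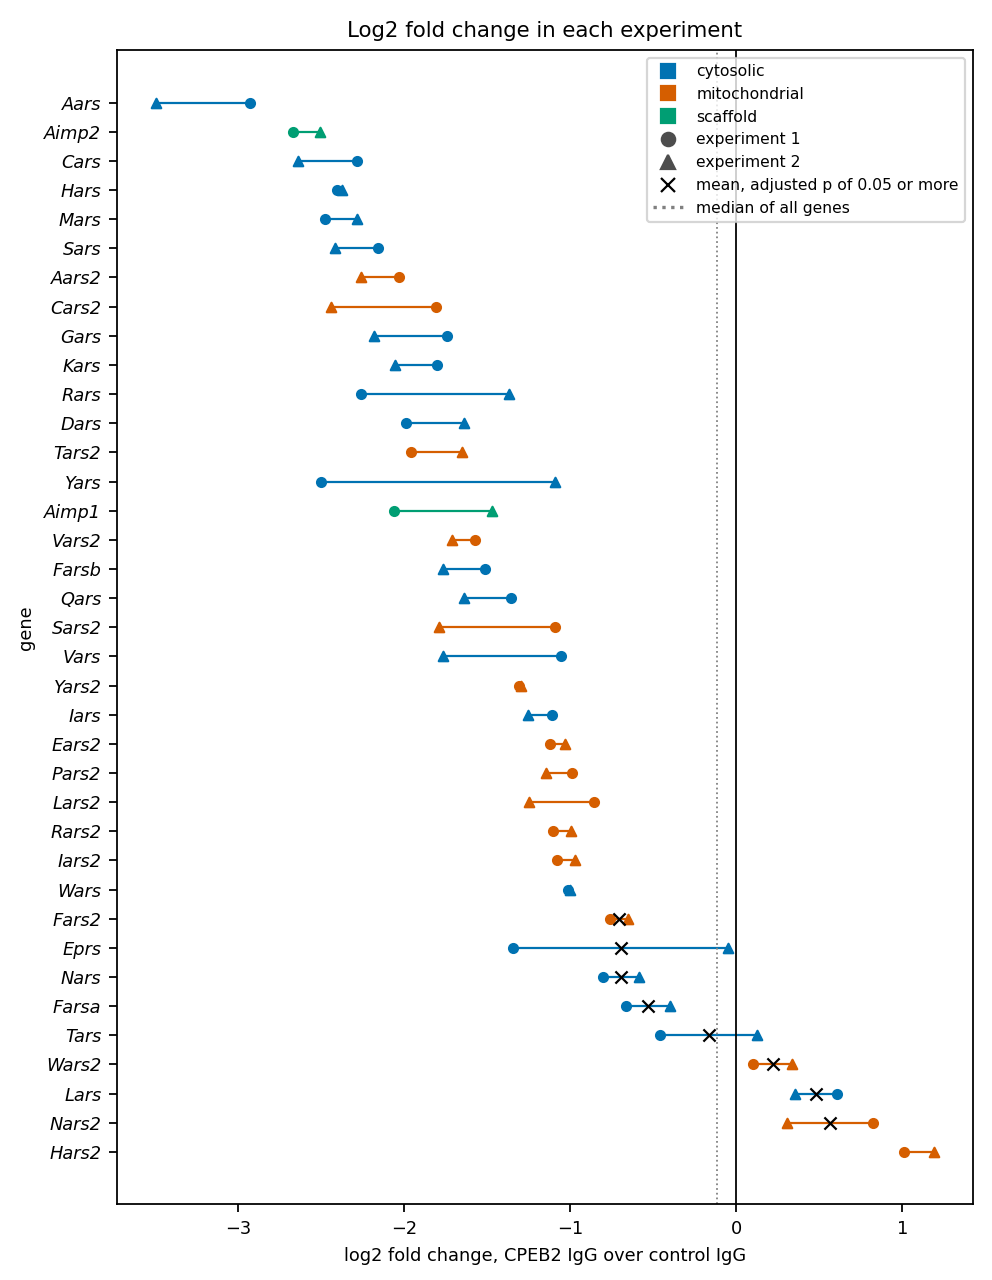
Log2 fold change of CPEB2 IgG over control IgG (horizontal axis) for each of the 37 genes (vertical axis), with experiment 1 as a circle, experiment 2 as a triangle and a line between them. A cross marks the mean of a gene that did not pass the limma test, and the dotted line is the median of all genes at -0.11. Of the 37 genes, 32 lie to the left of 0 in both experiments, and Yars and Eprs have the longest lines.

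Among the 15 mitochondrial enzymes tested, 11 were lower and 1 was higher, against 20.4% and 21.2% of all genes tested. Their median log2 fold change was -1.07. Aars2, whose signals were 262 and 314 with CPEB2 IgG against 1134 and 1528 with control IgG, had the lowest value of the group, -2.14 ± 0.16 (adjusted p = 0.0057, limma). Cars2 followed at -2.12 ± 0.45, Tars2 at -1.80 ± 0.22 and Vars2 at -1.64 ± 0.095 (SD, n = 2). The rest of those that were lower were Sars2 at -1.44, Yars2 at -1.30, Ears2 at -1.07, Pars2 at -1.07, Lars2 at -1.05, Rars2 at -1.05 and Iars2 at -1.03. Ears2 loads glutamate on mitochondrial glutamate and glutamine tRNAs, and Lars2 is known from inherited hearing loss with ovarian failure.

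Hars2, the mitochondrial histidine enzyme, was the only member that was higher with CPEB2 IgG. Its signals were 1842 and 1945 with CPEB2 IgG against 968 and 865 with control IgG. Both CPEB2 IgG arrays lay above both control IgG arrays, with a log2 fold change of 1.10 ± 0.13 (SD, n = 2), a standard error of 0.23 and an adjusted p of 0.021 (limma). Of all genes, 82.4% had a lower value. The call was lost without the filter on dim probes (adjusted p = 0.057, limma) and when control IgG replicate 1 or control IgG replicate 2 was left out (adjusted p = 0.060 and 0.076, limma). Hars2 was measured by 1 probe. This probe shared a stretch of at least 16 bases, searched on either strand, with 8 probes listed under other gene names. The log2 fold changes of those 8 probes ran from -0.52 to 0.35 with a median of -0.02, and 3 of them were above 0. The part of shared sequence in the Hars2 signal was not tested.

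The remaining 3 mitochondrial enzymes did not pass the test. Fars2, the single-chain phenylalanine enzyme, had signals of 1645 and 1652 with CPEB2 IgG against 2947 and 2635 with control IgG, without overlap, and a log2 fold change of -0.70 ± 0.076 (adjusted p = 0.067, limma). Wars2, the tryptophan enzyme, had 317 and 319 against 313 and 257, a log2 fold change of 0.22 ± 0.16 (adjusted p = 0.50, limma), and its other probe gave -0.26. Nars2, the asparagine enzyme, had 23.1 and 21.0 against 13.8 and 17.3. Since Nars2 was not well above background with control IgG, only a bound can be given, at least 1.39-fold higher with CPEB2 IgG on the scale relative to the 75th percentile (adjusted p = 0.15, limma). This bound sets the mean of the brighter antibody against, on each array, the lowest signal that was still well above background or the probe's own signal if that was higher.

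The scaffold proteins of the multisynthetase complex were both lower. Aimp2, which holds the complex together and is also known to bind p53, had signals of 1180.3 and 1069 with CPEB2 IgG against 7943 and 6165 with control IgG. Aimp1, whose cleaved form acts as a secreted cytokine, had 1187 and 1955 against 5252 and 5504. The antibodies did not overlap for either gene. The log2 fold changes were -2.59 ± 0.11 for Aimp2 and -1.77 ± 0.42 for Aimp1 (SD, n = 2), with adjusted p-values of 0.0054 and 0.0093 (limma). The 8 cytosolic enzymes of the complex included 6 that were lower and had a median of -1.65. The 12 cytosolic enzymes outside it included 9 that were lower and had a median of -1.72. Of the class I enzymes tested, 15 of 17 were lower with a median of -1.30, and of the class II enzymes 11 of 17 were lower with a median of -1.64. Eprs was counted in neither class because it holds a domain of each. The share of all genes that was lower, to be set against each of these groups, was 20.4%.

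The cytosolic enzymes were further below control IgG than the mitochondrial enzymes in both experiments. The median log2 fold change was -1.63 and -1.64 in experiments 1 and 2 for the cytosolic enzymes and -1.09 and -1.15 for the mitochondrial enzymes. The difference of the medians was -0.53 and -0.49 in the experiments. It was -0.65 when the log2 fold changes of each gene were first averaged over both experiments, which can put other genes at the median. Without Gars and Kars it was -0.50. With normexp background correction it was -0.29. Enzymes of a list are not replicates, so no test was made of this difference. The ranges overlapped widely, from -3.21 to 0.48 for the cytosolic and from -2.14 to 1.10 for the mitochondrial enzymes.

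Setting both enzymes of the same amino acid side by side gave 16 pairs. The cytosolic enzyme had the lower log2 fold change in both experiments in 9 pairs, the higher one in both in 3 pairs, and the experiments had opposite signs in 4 pairs. Eprs, which charges both amino acids, was used for glutamate and for proline, and both of these pairs are among those 4. The widest gap was that of histidine, where Hars lay 3.49 ± 0.10 below Hars2 on the log2 scale (SD, n = 2). Hars and Hars2 are next to each other in the genome, with 0 genes between them in the order of RefSeq, and their signals moved in opposite directions. Tryptophan (-1.23 ± 0.16, Wars minus Wars2) and alanine (-1.07 ± 0.24, Aars minus Aars2) were also far apart. Asparagine was not ranked, because Nars2 was not well above background with control IgG, and it is counted among the 9 pairs. The order was the other way for threonine, with Tars 1.64 ± 0.20 above Tars2, for leucine, with Lars 1.53 ± 0.094 above Lars2, and by 0.17 ± 0.11 for Farsa over Fars2. The phenylalanine enzyme gave 2 pairs because its cytosolic form has separate subunits, and Farsb lay -0.94 ± 0.26 from Fars2.

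**Figure D3:**
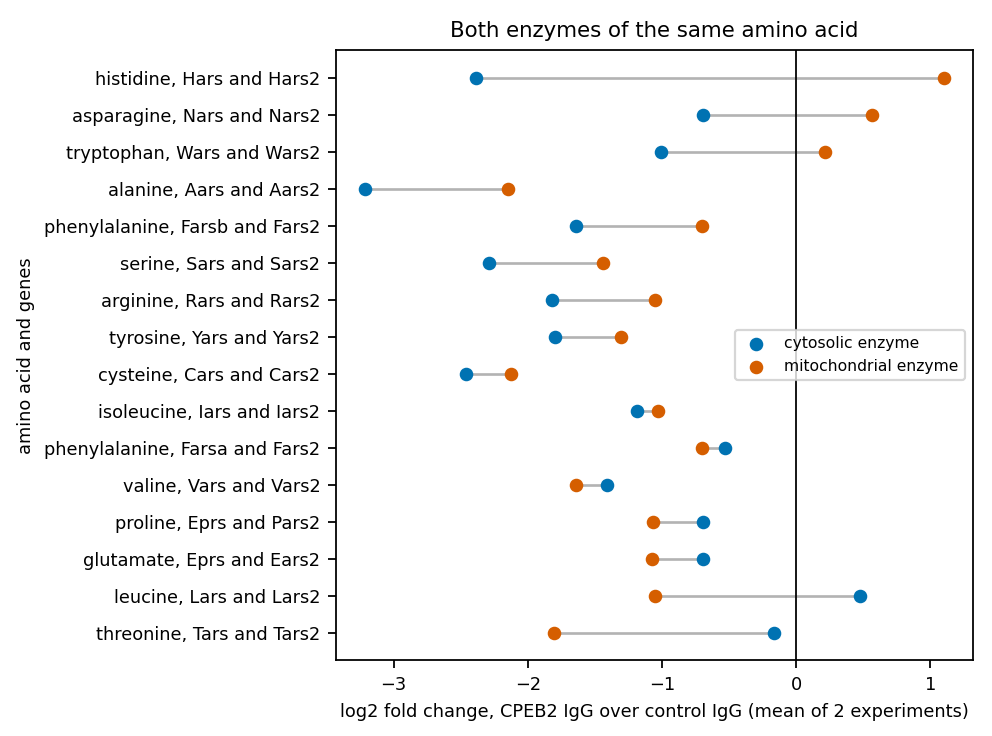
Log2 fold change of CPEB2 IgG over control IgG (horizontal axis, mean of 2 experiments) for both enzymes of an amino acid (vertical axis), with the cytosolic enzyme in blue and the mitochondrial enzyme in orange. Histidine has the widest gap, with Hars at -2.39 and Hars2 at 1.10, and in leucine and threonine the blue point lies to the right. The Nars2 point rests on control IgG signals that were not well above background.

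The study's own thresholds for an enriched RNA were a fold change of more than 1.5 and a raw signal of more than 1000. They were read here as the mean of both experiments and as either CPEB2 IgG array. For its final list the study also required a CPE in the untranslated region after the coding sequence, which was not examined here. The thresholds of fold change and signal were met by 1 member, Hars2, against 16.4% of all genes tested. Counting any probe of a gene gave 1 member as well, against 13.9% of the genes. With the direction turned around and the raw signal read on the control IgG arrays, 17 members passed, against 13.1% of all genes tested. They comprised 11 cytosolic enzymes, 4 mitochondrial enzymes and both scaffold proteins. These counts carry no test.

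The experiments gave similar values for the members. The Pearson correlation of experiment 1 with experiment 2 was 0.88 over the 37 genes and 0.82 over all 19698 genes. The genes share the same 4 arrays and are not independent. The SD over the experiments ran from 0.006 for Wars to 1.00 for Yars, with a median of 0.18 against 0.27 over all genes.

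Genes that act next to the synthetases were read from lists of their own. Of 13 other genes of tRNA charging, 4 were lower (30.8%) and 0 were higher by limma, against 20.4% and 21.2% of all genes tested. The median log2 fold change was -0.040 against -0.11 for all genes. At an unadjusted p under 0.05 (limma), 4 were lower and 3 were higher, namely Tarsl2 (0.75), Dtd1 (0.68) and Mtfmt (0.65). Shares of all genes at an unadjusted p were not counted here. Aarsd1, a free-standing enzyme that clears mischarged alanine tRNA, was lowest at -3.04, with signals of 1812 and 1342 with CPEB2 IgG against 13498 and 13168 with control IgG, without overlap. Pet112 (-2.04) and Qrsl1 (-1.87), subunits of the mitochondrial enzyme that turns glutamate into glutamine on the tRNA, were lower, while the other subunit, Gatc, was at 0.18 and not called. Also lower was Eef1e1, a small protein of the multisynthetase complex (1.99-fold lower). Of 8 genes that deliver charged tRNA to the ribosome, 6 were lower (75%) and 0 were higher by limma, against the same shares of all genes. Their median was -1.48, and at an unadjusted p under 0.05 (limma) 7 were lower and 0 were higher. Eef1a2, the elongation factor of neurons and muscle, had signals of 778 and 1016 against 7572 and 10349 and a log2 fold change of -3.26 ± 0.089 (SD, n = 2). Eefsec, which carries selenocysteine tRNA, was at -2.44, the mitochondrial factors Tufm and Tsfm at -2.41 and -1.20, and the exchange factor subunits Eef1d and Eef1g at -1.75 and -1.14. The exchange factor subunit Eef1b2 was at 0.23 and Eef1a1 at -0.77, and neither was called.

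The log2 fold change of all genes moved with the GC content of the probe, and the members were set against it. When all genes were split into 10 classes of equal size by GC content, their median ran from 0.47 in the lowest class to -0.61 in the highest. Member probes had a GC content from 23.3% for Eprs to 55% for Sars, Kars and Vars, with a median of 41.7% that equalled the median of all genes. Of the 37 genes, 33 lay below the median of their own class, and Wars2, Lars, Nars2 and Hars2 lay above it. After each array was centred within 20 bins of GC content, the medians were -1.50 for the cytosolic and -0.86 for the mitochondrial enzymes. With this centring 27 members were lower and 1 was higher (limma), against 17.0% and 22.6% of all genes.

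**Figure D4:**
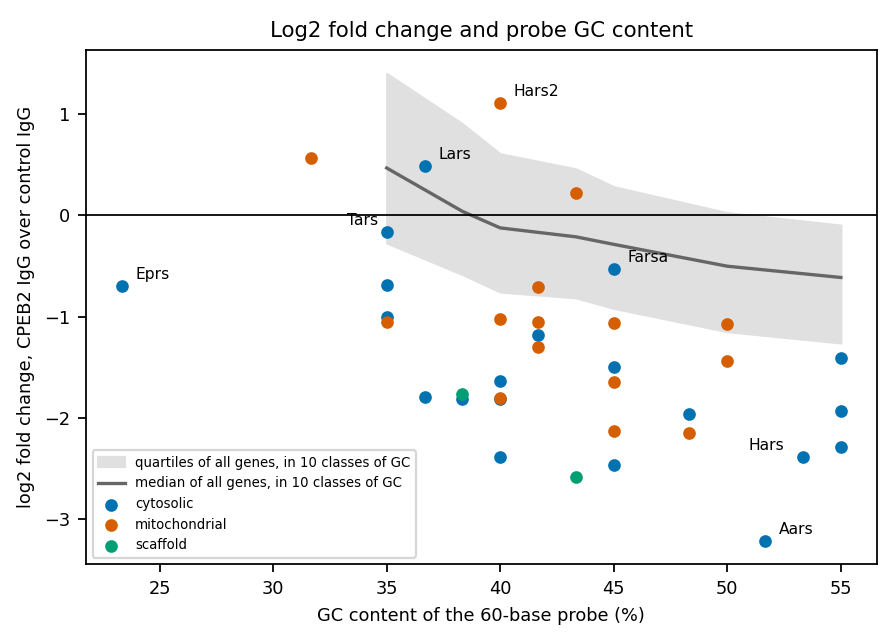
Log2 fold change of CPEB2 IgG over control IgG (vertical axis, mean of 2 experiments) against the GC content of the 60-base probe in percent (horizontal axis). Points are the 37 genes by compartment, the line and band are the median and quartiles of all genes in 10 classes of GC content, averaged over classes of equal median GC. Most points lie below the band, including Aars at -3.21, and Hars2 lies above it at 1.10.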

How the data were processed

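Each array file deposited by the authors came from the scanner software, Agilent Feature Extraction 10.5.1.1, and gave spot intensities after background correction by that software, without scaling between arrays. Groups were taken from the sample titles. In both samples mapped to CPEB2 IgG a description field reads CPEB3 IgG, but the title, the treatment protocol and the study give CPEB2.

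Control spots were left out, as were those with the software's non-uniformity or population outlier mark, spots of a probe were averaged, and 66 probes without a value on at least 1 array were dropped. The log2 intensity minus the 75th percentile of each array was used. Each gene was represented by its brightest probe among probes well above background on at least 2 of 4 arrays. limma 3.58.1 in R 4.3.3 was fitted to 19698 genes with the experiment as a block, which leaves 1 residual degree of freedom, with Benjamini-Hochberg adjustment over all genes and a threshold of 0.05. On simulated data the fit recovered the fold changes, but it made calls only when many genes changed, so calls on 4 arrays depend on how many genes change. The block was used because each lysate was divided between the antibodies, and arrays of the same experiment deviated together (correlation of deviations 0.20). p-values measure the spread between these arrays. Printed signals are intensities before scaling, and whether groups overlap was read after scaling. All 38 members were matched to RefSeq by accession, and 1 has another symbol there.

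The members and lists were chosen with earlier results of these data known. One gene of the list of other tRNA charging genes is not reported here and was left out of its counts. Signals on every array were given by rule for the 6 members with the lowest and the 6 with the highest log2 fold change, for Gars, Kars, Aimp1 and Aimp2, and for members whose probes, where well above background on at least 2 arrays, differed by more than 1 on the log2 scale. Signals of Aars2, Eprs, Fars2, Mars2, Nars, Rars and Yars and of Aarsd1, Eef1a2 and Itgam were added after their values were seen. The alternatives tried were other scalings, normexp background correction, marked spots kept, other probe and signal filters, no block, an intensity trend, and arrays or experiments left out. Python 3.11.15 with numpy 2.4.6, pandas 2.3.3 and matplotlib 3.10.9 was used for the rest.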

Additional observations from a re-analysis of the deposited data

How the results depend on the processing

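The number of members lower with CPEB2 IgG was 28 and ran from 25 to 31 under the other scalings, background correction, probe rules and the intensity trend. It was 18 of 38, Mars2 included, without a filter on dim probes (limma called 7.66% of all genes lower there). When a raw signal above 1000 was required, it was 18 of the 21 members tested, where 32.7% of all genes tested were lower. Without the replicate block for the experiment, 29 members were lower and 1 was higher, against 20.3% and 21.6% of all genes. Hars2 was not called without the filter on dim probes (0 higher, adjusted p = 0.057), without control IgG replicate 1 (adjusted p = 0.060) or without control IgG replicate 2 (adjusted p = 0.076), and the cause was not tested. Leaving out single arrays in fits without the block gave 19 to 26 lower members, with 21 without control IgG replicate 1 and 19 without control IgG replicate 2, and 0 to 1 higher. The share of all genes that was lower was 12.1% and 12.8% without these control arrays, and 21.6% and 15.0% without CPEB2 IgG replicate 1 and CPEB2 IgG replicate 2. Quantile normalization gave 2 higher members, the added one being Nars2, for which there is only a bound because it was not well above background with control IgG. Members past the study's thresholds numbered 2 after median centring, 0 with a raw signal above 2000, and 1 to 2 when either experiment was left out.

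The scaling set the level of all genes. The median of all genes rose by 0.23 with median centring and by 0.13 with quantile normalization, and the split of all genes changed from 21.2% higher and 20.4% lower to 26.5% and 16.8% with median centring. The median of the cytosolic enzymes was -1.83 with the percentile over detected probes, -1.77 without scaling, -1.60 with quantile normalization, -1.50 after GC centring, -1.49 with median centring, -1.24 with normexp correction, -1.57 with a raw signal above 1000 or without Gars and Kars, -1.77 with Aimp1 and Aimp2 placed by their symbols, and -1.64 to -1.63 with either experiment left out. That of the mitochondrial enzymes was -1.17, -1.12, -0.86, -0.84 and -0.95 with the percentile over detected probes, no scaling, GC centring, median centring and normexp correction, and -1.15 to -1.09 with either experiment left out. Their difference was -0.29 with normexp correction, -0.51 with quantile normalization, -0.52 with a raw signal above 1000, -0.50 without Gars and Kars, -0.70 with Aimp1 and Aimp2 placed by symbol, and -0.53 to -0.49 with either experiment left out.

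The sign turned for 2 genes that did not pass the test. Tars was at 0.061 with median centring, 0.11 without CPEB2 IgG replicate 1 and between -0.46 (without replicate 2) and 0.13 (without replicate 1) in single experiments, and Wars2 was at -0.019 with the mean of its probes and -0.26 with the median probe. Farsa became lower with the mean of its probes (-1.29, adjusted p = 0.014), with normexp correction (-0.49, adjusted p = 0.04997) and with a raw signal above 1000 (-0.53, adjusted p = 0.045).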
